A study of Arabidopsis thaliana with 8 samples.

Results

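CASP1 (AT2G36100), CASP2 (AT3G11550) and ESB1 (AT2G28670) are 3 genes of the Casparian strip, the lignin band of the root endodermis, and were followed here by locus identifier among the 3691 genes listed for roots and shoots of Arabidopsis thaliana. All 3 were present in both tables. The plants were wild type, ecotype Col-0, and were exposed to 2,5-dimethylpyrazine (2,5-D, a volatile pyrazine) at 100 µM on a paper disc, or to water on the disc as control. The treatment is labelled as 24 hours, while the growth text names 14 days of culture in the same divided plate, so how long the plants met the volatile is uncertain. Each of the 4 groups (root water, root 2,5-D, shoot water, shoot 2,5-D) had 2 libraries, 8 in all. Nothing in the labels states that they came from separately grown plants, so each p-value covers only the scatter among libraries, possibly technical.

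The endodermis is the innermost cortical layer of the root and surrounds the vascular cylinder. Its cells seal the wall space between them with the Casparian strip, so that water and ions must cross a plasma membrane to reach the xylem. CASP proteins are membrane proteins that gather into a belt and mark where the strip forms. ESB1 is a dirigent protein that sits in the strip and is needed for an unbroken lignin band. Peroxidases and laccases couple the lignin monomers there. The transcription factor SHR, made in the stele, moves into the neighbouring layer and sets endodermal fate.

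The deposited values are a normalized expression level per gene with no unit in the headers. Listed genes summed to 252869.88 to 343911.68 per library. Low values fell on steps that scaled with exonic length: multiplied by length less 250 bases, 65.4% to 75.0% of them came within 0.1 of whole multiples of the best step, against 29.6% to 39.3% with no length term. The length model also chose among several allowances, so its search was wider than that with no length term. Only 84 to 186 low values per library entered, from genes of a limited range of lengths. With these limits, levels are compared between genes as length-scaled values. In the shoot controls 553 genes differed over 2-fold between the replicates. This number was 14 for shoots given 2,5-D, 32 for root controls and 2 for roots given 2,5-D. Genes of shoot photosynthesis, 6 of a list of 9, summed to 118.1 to 163.7 in the root libraries and to 7762 to 14720 in the shoot libraries. Of the 3691 genes, only 2 had overlapping water and 2,5-D values in both organs, so the genes appear to have been listed for differing in these libraries.

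CASP1, CASP2 and ESB1 transcripts were all about halved in roots given 2,5-D. CASP1 stood at 75.28 and 67.34 in the root water libraries and at 33.46 and 42.02 in the root 2,5-D libraries. CASP2 was at 15.03 and 14.81 in the controls and 7.05 and 7.55 after 2,5-D. ESB1 was at 38.12 and 39.3 in the controls and 17.31 and 23.31 after 2,5-D. For each gene both 2,5-D libraries lay below both water libraries. In whole roots, fewer endodermal cells and less transcript per cell cannot be told apart. Relative to the water mean, 2,5-D replicates 1 and 2 held 46.9% and 58.9% of CASP1, 47.2% and 50.6% of CASP2, and 44.7% and 60.2% of ESB1.

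**Figure D1:**
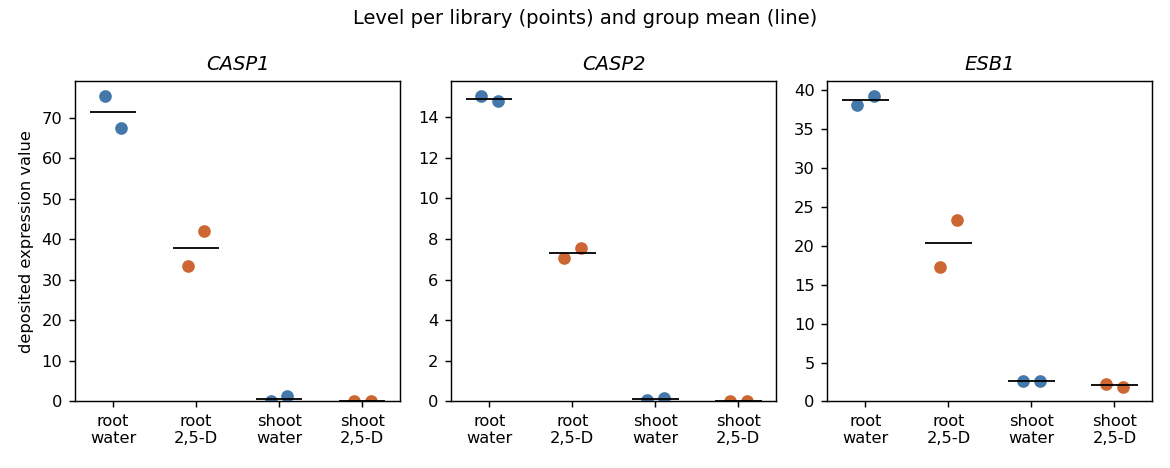
Deposited expression value (linear axis from 0, no unit given) of CASP1, CASP2 and ESB1 in each library; points are libraries, horizontal lines are group means, blue is water and orange is 2,5-D. In root the 2,5-D points lie below the water points in every panel, and in shoot CASP1 and CASP2 lie near 0 while ESB1 lies between 1.87 and 2.58.

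In limma, fitted on log2(value + 1) over the 3487 genes with a root mean of at least 1, with Benjamini-Hochberg adjustment over all of them, all 3 genes fell. CASP1 went from 71.3 ± 5.61 to 37.7 ± 6.05 (SD, n = 2), a log2 change of -0.91 (SE 0.17, 95% interval -1.3 to -0.52, adjusted p = 0.00204). CASP2 went from 14.9 ± 0.156 to 7.3 ± 0.354 (log2 change -0.94, SE 0.15, 95% interval -1.28 to -0.60, adjusted p = 0.000984). ESB1 went from 38.7 ± 0.834 to 20.3 ± 4.24 (log2 change -0.91, SE 0.18, 95% interval -1.31 to -0.51, adjusted p = 0.00219). The SD of ESB1 was larger in the 2,5-D pair than in the water pair. An exact two-sided permutation test of 2 libraries against 2 cannot give a p below 0.333, so none is given.

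Leaving out 2,5-D replicate 1 ended the call of CASP1 (log2 change -0.75, adjusted p = 0.0613) and of ESB1 (-0.71, adjusted p = 0.0520), but not of CASP2 (-0.90, adjusted p = 0.0219). In a limma fit over both organs, which shares its spread with the uneven shoot water pair, CASP1 also missed the threshold (adjusted p = 0.0625).

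The calls have to be read against how the genes came to be listed. By the same limma rule 22.5% of the genes tested in root were lower and 39.0% higher, and both 2,5-D libraries lay below both water libraries in 31.5% of all listed genes and above them in 51.3%. Among the 272 tested genes with a shoot mean below 1, as CASP1 and CASP2 have, 31.6% were called lower and 63.2% higher, and 98.2% had root groups that did not overlap. No gene of these 272 had a root log2 change between -0.6 and -0.2, against 28 between -1.0 and -0.8 and 33 between -1.2 and -1.0. A gene nearly silent in shoot was thus listed almost only with its root groups apart. That CASP1 and CASP2 fell is therefore a description of these libraries and no independent evidence of a response. ESB1 is on the same list and was chosen with earlier results of these data known, so the same holds for its fall.

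In size, 8.55% of the genes tested in root had a lower log2 change than CASP2, 9.46% a lower one than ESB1 and 9.72% a lower one than CASP1. The median log2 change of all genes tested was 0.26, so the 3 genes lay further below the bulk of the list than below 0. Rescaling the root libraries to equal medians moved the median change by -0.11. With it the log2 changes were -1.02 for CASP1, -1.04 for CASP2 and -1.02 for ESB1, and the share of genes called lower went to 25.6% and of those called higher to 29.9%. With the trend on gene length removed these shares were 29.3% and 27.1%.

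**Figure D2:**
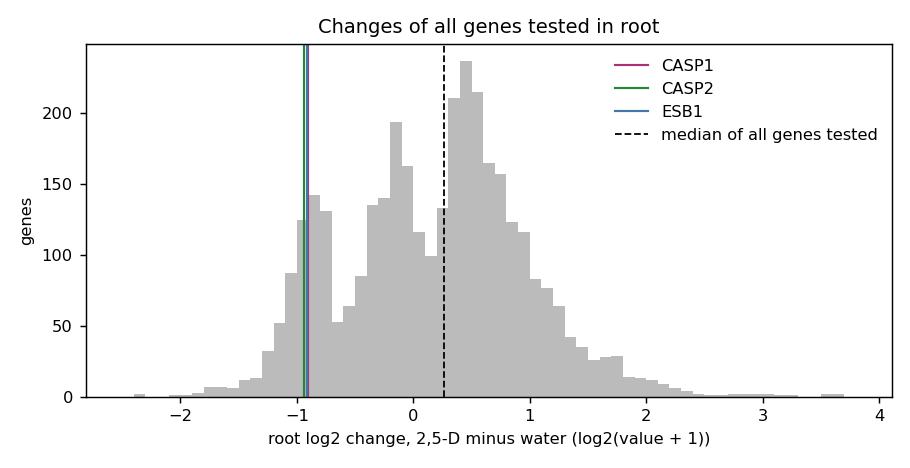
Histogram of root log2 changes (2,5-D minus water, on the log2(value + 1) scale) of the 3487 genes tested in root, in bins of 0.1; coloured lines mark CASP1, CASP2 and ESB1 and the dashed line the median of 0.26. The listed genes form separate humps, and the 3 genes lie together in the lowest one, between -0.94 and -0.91.

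The levels of the 3 genes kept one order in every root library, with CASP1 highest, ESB1 next and CASP2 lowest, and no neighbouring pair in that order overlapped within a group. CASP1 was 5.01 and 4.55 times CASP2 in the water libraries and 4.75 and 5.57 times CASP2 in the 2,5-D libraries. CASP1 was 1.98 and 1.71 times ESB1 in water and 1.93 and 1.80 times ESB1 with 2,5-D. ESB1 was 2.54 and 2.65 times CASP2 in water and 2.46 and 3.09 times CASP2 with 2,5-D. None of these ratios separated the 2,5-D libraries from the water libraries. The fitted steps put the reads behind these values at about 365 to 821 for CASP1, 87.5 to 187 for CASP2 and 427 to 941 for ESB1 per root library.

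In shoot, which has no Casparian strip, CASP1 and CASP2 were at or near the level of a single read. CASP1 was at 0.09 and 1.22 in the shoot water libraries and at 0.1 and 0 with 2,5-D. CASP2 was at 0.08 and 0.15 in water and was listed at 0 in both 2,5-D libraries. By the fitted steps, 1 read was worth 0.0879 to 0.104 for CASP1 and 0.0772 to 0.0913 for CASP2 in shoot. CASP1 in water replicate 2, at about 13.9 reads, was the one value of the pair clearly above that. Both genes were below the filter in shoot, so no change was tested there. Root and shoot values come from separate tables whose common scaling is not stated, and no fold between organs is given.

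ESB1 was low but measurable in shoot, unlike CASP1 and CASP2, so shoot was no organ without its transcript. It was at 2.56 and 2.58 in the controls and 2.24 and 1.87 after 2,5-D, which corresponds to about 40.7 to 66.5 reads. Both 2,5-D values lay below both water values, as they did in 25.9% of the genes of the shoot table, with 49.7% the other way. The log2 change in shoot was -0.23 (SE 0.15, adjusted p = 0.273), and limma called 0 of 3376 genes tested in shoot, with 1664 at an unadjusted p under 0.05. Set against each other in one fit over both organs, the root change of ESB1 was 0.68 lower than its shoot change on the log2 scale (difference -0.68, SE 0.23, 95% interval -1.23 to -0.14, adjusted p = 0.0644). That difference did not pass the threshold, which 29.3% of 3215 genes tested in both organs did. With a pseudocount of 5, larger than any shoot value of ESB1, it passed (-0.70, adjusted p = 0.0260). That pseudocount shrank the log2 changes of ESB1 to -0.80 in root and -0.10 in shoot.

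The other Casparian strip genes in the tables moved in root as the 3 did. Of 35 genes on a list of strip components and regulators, 13 were in the tables, and all 13 were tested in root and fell. Without 2,5-D replicate 1, CASP1, ESB1 and AT4G11290 were no longer called, in a fit that also called fewer of all genes tested in root lower. The median log2 change of the list was -0.94, against 0.26 for all genes tested in root, of which 22.5% were called lower. That share was 31.6% among those with a shoot mean below 1. Besides CASP1, CASP2 and ESB1 the list held 10 of the 13, with log2 changes of -1.56 to -0.80. The 2,5-D means of the 13 genes were 31.7% to 55.1% of the water means. The remaining 22 genes of the list, among them the regulators MYB36 and SCR and the receptor SGN3, are not analysed here. The same limit on listing applies to these genes, so the count is a description.

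Lignin polymerisation was represented by a laccase and a pair of peroxidases. LAC3 (AT2G30210), a laccase found at the strip, had the largest fall of the list, from 28.92 and 38.24 to 10.28 and 11.03 (log2 change -1.56, SE 0.18, adjusted p = 0.000171). PER64 (AT5G42180), a peroxidase that acts in strip lignification, fell from 24.23 and 23.56 to 9.7 and 13.23 (log2 change -1.01, adjusted p = 0.00137). AT4G11290, a peroxidase family gene, was the most abundant of the list in root, at 213.8 and 194.8 in the controls and 104.9 and 118.6 after 2,5-D (log2 change -0.87, adjusted p = 0.00188). It was also the most abundant in shoot, at 55.8 and 62.26 in the controls and 53.05 and 45.88 after 2,5-D (log2 change -0.25, adjusted p = 0.294). Without 2,5-D replicate 1 the root call of AT4G11290 was lost (adjusted p = 0.0638).

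The dirigent genes of the list, relatives of ESB1, fell by 0.90 to 1.09 on the log2 scale. AT3G55230 went from 51.68 and 48.59 to 22.84 and 25.12 (log2 change -1.03, adjusted p = 0.000704), and AT3G24020 from 40.04 and 36.43 to 19.15 and 20.77 (log2 change -0.90, adjusted p = 0.00129). The other changes were -1.07 for AT2G39430 and -1.09 for AT4G13580. In shoot these 4 genes ranged from 0 to 1.13, below the filter.

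Regulators and signalling genes of the list fell as well, among them SHR, which is made in the stele. SHR (AT4G37650) was at 14.89 and 14.08 in the controls and 5.61 and 8.32 after 2,5-D (log2 change -0.98, SE 0.19, adjusted p = 0.00213). JKD (AT5G03150), a zinc finger protein that works with SHR, was at 9.85 and 13.24 in the controls and 6.23 and 6.07 after 2,5-D (log2 change -0.80, adjusted p = 0.00392). AT1G61590, a protein kinase gene of the list, was at 22.2 and 29.02 in the controls and 13.9 and 14.3 after 2,5-D (log2 change -0.81, adjusted p = 0.0033). In shoot, SHR was at 4.31 and 4.28 in the controls and 3.7 and 2.76 after 2,5-D, and JKD was at 7.23 and 6.25 in the controls and 5.76 and 4.94 after 2,5-D. Neither passed in shoot (adjusted p = 0.191 and 0.198), and their root changes did not pass as different from their shoot changes (adjusted p = 0.119 and 0.146). Of the 4 list genes tested in shoot, limma called 0, and 0 had an unadjusted p under 0.05. Among all genes tested in shoot, 49.3% had one.

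The pair of 2,5-D root libraries differed in the same sense across the list. In 12 of 13 genes, 92.3%, the value was lower in 2,5-D replicate 1 than in replicate 2, with JKD as the exception, against 54.5% of all genes tested in root and 68.5% of those called lower. The part of this library difference in the size of the changes was not tested beyond leaving each library out.

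The wider gene families of the 3 members did not move as a block. CASP1 and CASP2 belong to the family that RefSeq names UPF0497, of which 6 genes were listed: 3 fell, 2 rose and 1 did not pass. The shares over all genes tested in root were 22.5% lower and 39.0% higher. CASPL1A1 (AT1G14160), a CASP-like gene nearly absent from shoot, fell with CASP1 and CASP2, from 26.17 and 28.57 to 12.6 and 11.43 (log2 change -1.12, adjusted p = 0.000472). CASPL1D1 (AT4G15610) rose from 236.2 and 183.9 to 528.6 and 539.3 (log2 change 1.35, SE 0.17, adjusted p = 0.000336). CASPL4D2 (AT2G39518) rose from 24.56 and 16.66 to 46.73 and 51.02 (log2 change 1.23, adjusted p = 0.000933). CASPL2A1 (AT1G17200) was at 5.34 and 4.72 in the controls and 3.61 and 3.55 after 2,5-D (log2 change -0.39, adjusted p = 0.0612). It was called lower with no filter (adjusted p = 0.0468), equal medians (0.0282), the length trend removed (0.00576), water replicate 2 left out (0.0498) and in the fit over both organs (0.0443). The first 4 of these settings gave 4 family genes lower. The 2 genes that rose were also present in shoot, at 21.65 to 34.89 for CASPL1D1 and 5.1 to 33.72 for CASPL4D2. CASPL2A1, which did not rise, was higher there, at 39.88 to 69.95. In the fit over both organs the rise of CASPL4D2 was not called (adjusted p = 0.0637).

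Of 11 listed genes of the dirigent family, to which ESB1 belongs, 8 fell and 3 rose. Over all genes tested in root, 22.5% were called lower and 39.0% higher. Outside the strip list, AT4G11210 (log2 change -1.03), AT4G11190 (-0.92) and DIR6 (AT4G23690, -0.76), which guides coupling in lignan synthesis, fell. DIR6 lost its call without 2,5-D replicate 1 (log2 change -0.69, adjusted p = 0.0724). The genes that rose were AT1G22900, from 2.11 and 1.91 to 6.65 and 4.12 (log2 change 1.06, adjusted p = 0.0025), AT3G13650, from 143.1 and 110.5 to 217.1 and 182.6 (0.66, adjusted p = 0.0124), and AT1G55210, from 362.6 and 400.4 to 568.7 and 517.0 (0.51, adjusted p = 0.0199). Removing the length trend left 1 dirigent gene called higher. With 2,5-D replicate 1 or 2 dropped, fewer dirigent genes were called higher too, as was so among all genes tested in root. The log2 changes of all 3 remained positive in these fits. All 3 were at 3.62 or more in every shoot library, whereas the 5 dirigent genes of the strip list were at 2.58 or less there. DIR6, which fell, was at 3.45 to 5.4 in shoot, beside 3.62 to 5.54 for AT1G22900. AT4G11190 and AT4G11210, which also fell, were at 2.17 or less there.

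**Figure D3:**
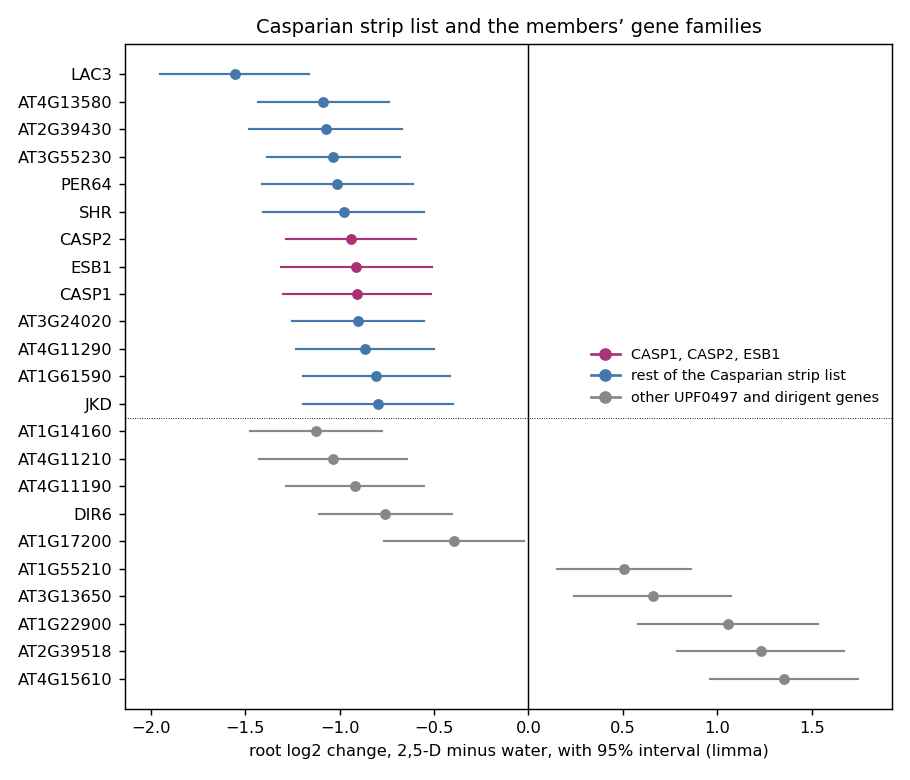
Root log2 change (2,5-D minus water, limma, point) with its 95% interval (line) for the 13 listed genes of the Casparian strip list, above the dotted line, and for the other 10 listed genes of the UPF0497 and dirigent families, below it. The 13 strip genes lie between -1.56 and -0.80, while the other family genes spread from -1.12 to 1.35.

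Suberin, the second barrier of the endodermis, was represented by 3 genes of a list of 18. They did not move together: 1 rose, 1 fell and 1 did not pass. Among all genes tested in root, 39.0% were called higher and 22.5% lower. ASFT (AT5G41040, RWP1 in RefSeq), which attaches ferulate to suberin, fell from 81.82 and 89.16 to 41.79 and 42.73 (log2 change -1.0, SE 0.16, adjusted p = 0.000839). MYB39 (AT4G17785), a transcription factor that activates suberin genes, rose from 3 and 4.42 to 8.88 and 6.85 (log2 change 0.92, SE 0.20, adjusted p = 0.00372). GPAT7 (AT5G06090), an acyltransferase, was at 6.61 and 8.46 in the controls and 12.51 and 8.96 after 2,5-D (log2 change 0.45, adjusted p = 0.0703). Without 2,5-D replicate 1 the rise of MYB39 (log2 change 0.75) was not called, in a fit that called fewer of all genes tested in root higher. Without water replicate 2 the rise of GPAT7 (log2 change 0.61) was called.

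Of a list of 21 lignin synthesis genes, 4 were in the tables. Beside 22.5% of all genes tested in root called lower, 3 of these 4 fell. These were the laccases LAC4 (AT2G38080, IRX12 in RefSeq), LAC11 (AT5G03260) and LAC17 (AT5G60020), which lignify vascular walls. LAC4 went from 13.68 and 14.7 to 5.4 and 4.95 (log2 change -1.3, adjusted p = 0.000233), and LAC11 and LAC17 fell by 1.14 and 0.97 on the log2 scale. PAL1 (AT2G37040), the entry enzyme of the phenylpropanoid pathway, was at 415.1 and 275.9 in the controls and 379.9 and 430.6 after 2,5-D (log2 change 0.26, adjusted p = 0.298). Its log2 change was 0.55 and called higher without water replicate 1 (adjusted p = 0.000276), and -0.04 without water replicate 2 (adjusted p = 0.837).

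Markers of other root cell types moved as follows, with vascular genes first. Their counts stand beside 22.5% of all genes tested in root called lower and 39.0% called higher. Of 4 genes of the pericycle and stele, 3 were listed and 3 fell, with summed levels of 246.4 and 375.3 in water and 104.6 and 132.3 with 2,5-D. Among them SKOR (AT3G02850), a potassium channel that loads the xylem, went from 2.49 and 3.05 to 0.33 and 0.34 (log2 change -1.49, adjusted p = 0.000301, but -2.71 with a pseudocount of 0.1 and -0.54 with one of 5), and HKT1 (AT4G10310), a sodium transporter of the stele, from 14.62 and 15.31 to 6.89 and 7.15 (-0.99, adjusted p = 0.00076). SKOR passed the filter only through its water values, as its 2,5-D mean was 0.335, so its call is a description. NRT1.5 (AT1G32450), a nitrate loader of the xylem, was the third gene and made up most of the summed levels. It went from 229.3 and 356.9 to 97.34 and 124.8 (log2 change -1.37, adjusted p = 0.00112).

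Of 7 xylem genes, 3 were listed and 3 fell, with summed levels of 84.72 and 92.72 in water and 47.78 and 57.02 with 2,5-D. They were the cellulose synthases of secondary walls CESA4 (AT5G44030, log2 change -0.75) and CESA7 (AT5G17420, IRX3 in RefSeq, -0.77) and the protease XCP2 (AT1G20850, -0.72). Leaving out 2,5-D replicate 1 ended the calls of CESA4 (log2 change -0.58) and XCP2 (-0.60) but not that of CESA7. Fewer of all genes tested in root were called lower in that fit. Of 5 phloem genes, 2 were listed: the sucrose carrier SUC2 (AT1G22710) fell (log2 change -0.63) and NAKR1 (AT5G02600) did not pass (-0.18, adjusted p = 0.328). The call of SUC2 was lost without either 2,5-D library (adjusted p = 0.0779 without replicate 1 and 0.0581 without replicate 2). The cortex gene AT1G62500 fell from 25.56 and 30.79 to 15.72 and 16.87 (log2 change -0.75, adjusted p = 0.00353; 0.0550 without 2,5-D replicate 1). It was at 22.04 to 44.95 in shoot and is thus no marker of root cortex alone here.

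Of 4 meristem genes, 2 were listed and moved apart: WOX5 (AT3G11260), a factor of the quiescent centre, rose from 1.96 and 1.93 to 4.81 and 4.83 (log2 change 0.98, adjusted p = 0.00118), and the mitotic cyclin CYCB1;1 (AT4G37490) fell (-0.95, adjusted p = 0.00177). The 8 list genes of root hairs and epidermis and the 3 of the root cap are not analysed here. The part of these other cell types in the falls of CASP1, CASP2 and ESB1 was not tested.

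The genes most like CASP1, CASP2 and ESB1 over the 4 root libraries were found by the root mean square difference of log2(value + 1), centred on each gene's root mean, from the mean of the 3. Among 270 other genes tested in root with a shoot mean below 1, the nearest 8 included 3 of the 7 strip list genes in that set. The nearest was AT5G52790, a CBS domain protein gene (difference 0.0376), followed by AT3G18900 (0.0583), the dirigent genes AT3G24020 (0.0651) and AT4G11210 (0.0676), PER64 (0.0676), the RING finger gene AT3G54780 (0.0708), the dirigent gene AT3G55230 (0.0772) and the MYB-like gene AT5G06800 (0.0784). The 3 members themselves lay 0.0440 (CASP1), 0.0668 (CASP2) and 0.0577 (ESB1) from their mean. With all 3484 other genes tested in root as candidates, 0 of the nearest 8 were on the strip list and 1, AT5G52790, was shared with the first 8. Over 4 libraries such likeness is mostly the size of the fall on the log2(value + 1) scale and the gap between replicates. That scale understates the falls of low genes. Control roots held 2.05 and 1.79 of AT5G52790, treated roots 0.46 and 0.72. That gene passed the filter through its control values alone. For AT3G54780 the control values were 3.63 and 3.79, the treated ones 1.13 and 1.47. Relative to their controls, both genes fell further than CASP1, CASP2 and ESB1.

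**Figure D4:**
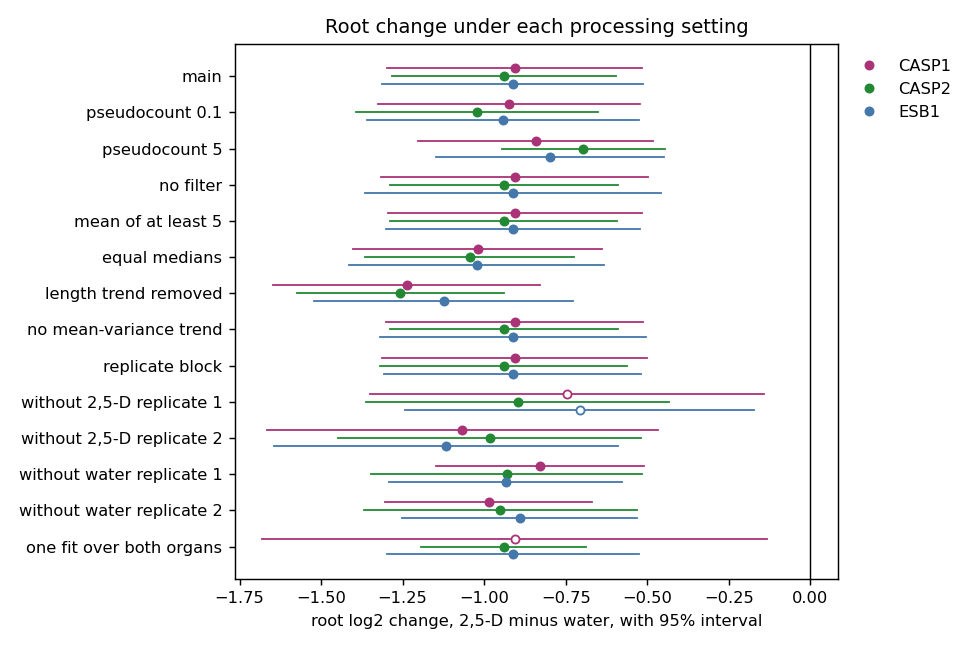
Root log2 change (2,5-D minus water, point) with its 95% interval (line) of CASP1, CASP2 and ESB1 under each processing setting; filled points have an adjusted p under 0.05 in limma and open points do not. All points lie between -1.26 and -0.70, and 3 of them are open: CASP1 and ESB1 without 2,5-D replicate 1, and CASP1 in the fit over both organs.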

How the data were processed

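RNA from roots and shoots was sequenced from DNBSEQ libraries, per the labels' protocols, and HISAT2 2.0.4 is named in the submitters' processing notes. The sources used here do not give the counting program, annotation, genome build or rule for listing genes. Per organ, the authors deposited one table of expression signal, already normalized; the file headers state no unit. No column of values was left unused. Both shoot 2,5-D columns carry the header of replicate 1; their order serves only as a name. Total depth is unknown, and read numbers are estimates from the fitted steps.

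Symbols, product names and exonic lengths came from RefSeq TAIR10.1 by locus tag, which matched all 3691 genes. As the authors' build is not known, no coordinates or sequences were taken from it, and promoters and proteins were not analysed here.

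Organs were fitted separately on log2(value + 1), which understates changes of low genes, using limma 3.58.1 (R 4.3.3) and a mean-variance trend. Genes whose mean reached 1 were tested; genes with an adjusted p under 0.05 were called. The fit was also run on simulated data. Far fewer genes changed there than were called in root, so that run gives no error rate for these calls. The difference between organs was tested over all 8 libraries, a test added after the data were seen, as was the use of the name UPF0497 for the CASP family. The alternatives were pseudocounts of 0.1 and 5, no filter or a mean of at least 5, equal medians, removal of the length trend, no mean-variance trend, a replicate block, a fit over both organs and each library left out. Genes were named if they were members, were in the tables and on the strip, suberin, lignin or cell type lists or in the members' families, or were among the 8 most like the members. Members and lists were chosen with earlier results of these data known. Shoot photosynthesis genes were used by their sum only.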

Additional observations from a re-analysis of the deposited data

Results flagged for a closer look

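The 2,5-D response differed between organs for 12 of 26 named genes tested in both, against 29.3% of all 3215 genes so tested, by limma's test of the difference in the fit over both organs (adjusted p under 0.05). The root change minus the shoot change, on the log2 scale, was -0.83 for ASFT (RWP1), -1.14 for LAC4 (IRX12), -1.37 for LAC11, -1.04 for LAC17, -1.18 for CESA4, -1.33 for CESA7 (IRX3), -0.92 for XCP2, -1.3 for SUC2, -0.92 for NAKR1 and -0.88 for CYCB1;1. It was 1.21 for the dirigent gene AT1G22900 and 1.08 for CASPL1D1 (AT4G15610). With a single library left out, the differences kept their signs, for example -1.01 to -0.66 for RWP1 and 0.84 to 1.31 for AT4G15610. The calls were lost without any single root or shoot 2,5-D library and kept without either shoot water library. The share of all genes called in those fits is not given here, so this is no trait of these 12 genes. Equal medians ended the calls of RWP1 (adjusted p = 0.0938), IRX3 (0.0573), XCP2 (0.121), NAKR1 (0.0949) and CYCB1;1 (0.0712), and a pseudocount of 0.1 those of RWP1 (0.0579) and AT4G15610 (0.0538). ESB1, the one member tested in both organs, was not among the 12. For 2 genes below the filter in shoot, the libraries went in opposite directions in the organs, a difference that was not tested. Their shoot values were low, at 0.63 or less. In 49.7% of all listed genes both shoot 2,5-D libraries lay above both shoot water libraries. AT1G61590 had a root 2,5-D mean of 14.1 against 25.6 in water, while its shoot values were 0.31 and 0.3 in water and 0.46 and 0.63 with 2,5-D. SKOR had a root 2,5-D mean of 0.335 against 2.77 in water, and shoot values of 0.12 and 0.1 in water and 0.2 and 0.15 with 2,5-D.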

How the results depend on the processing

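CASP1, CASP2 and ESB1 kept a negative root log2 change under all alternatives run, and their calls held in 36 of 39 such fits. With 1 library left out, the log2 change of CASP1 ranged from -1.07 to -0.75 and that of ESB1 from -1.12 to -0.71. In the fit over both organs CASP1 (-0.91) was no longer called. The replicate block, where CASP1 had a log2 change of -0.91, ended no call of a member. It gave 1393 genes higher and 792 lower in root and 2 suberin genes higher. For the 2 pairs of same-numbered root libraries, the correlation of deviations was -0.0494. With so few libraries, this value cannot decide whether same-numbered samples were grown or handled together. The shoot headers carry no usable numbers. A shared number is thus the only known link behind the replicate block.

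Root genes called higher numbered 1360, and 751 in the fit over both organs; with 1 library left out they ranged from 637 to 1610, and those lower from 456 to 902. Suberin genes higher ranged from 0 to 2 and dirigent genes higher from 0 to 3 with 1 library left out. Dirigent genes higher numbered 1 with the length trend removed, and UPF0497 genes higher 1 in the fit over both organs. In shoot, 0 genes were called; 511 were higher and 221 lower with a pseudocount of 5, 69 and 476 with equal medians, and 1116 and 601 in the fit over both organs. With 1 shoot library left out, genes higher ranged from 0 to 1620 and lower from 0 to 860, the nonzero counts coming without either water library. The organ difference of ESB1 was -0.70 and called with a pseudocount of 5, which is larger than any shoot value of that gene. It ranged from -0.89 to -0.48 with 1 library left out.

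Signs turned for PAL1 in root (-0.0375 to 0.55 with 1 library left out) and for uncalled shoot changes. With equal medians these were -0.11 for LAC11, -0.24 for LAC17, -0.22 for XCP2 and -0.13 for AT4G15610. With the length trend removed they were -0.16 for LAC11, -0.36 for LAC17, -0.23 for CESA4, -0.0672 for IRX3 and -0.0761 for AT4G15610. With 1 library left out, shoot changes ranged from -0.343 to 0.0136 for RWP1, -0.322 to 0.00776 for IRX12, -0.411 to 0.0195 for AT3G13650, -0.351 to 0.0362 for AT1G22900 and -0.0253 to 0.165 for LAC17. A pseudocount of 5 shrank some root changes of low genes by over 1.5 times, to 0.56 for MYB39, -0.50 for IRX3, 0.50 for WOX5, -0.59 for CYCB1;1 and 0.56 for AT1G22900, with their calls kept. The cause of the turned signs and changed calls was not tested. A lone library left in a group is assumed to vary like the other group.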

Other observations

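Of 9 strip list genes with a shoot mean below 1, 7 had their highest shoot value in shoot water replicate 2, against 55 of 272 genes of that kind among all tested in root. In that library CASP1 was at 1.22, AT3G55230 at 1.13 and LAC3 at 1.11, and the 2 listed CASP genes summed to 1.37, against 0.17, 0.1 and 0 in the other shoot libraries. The source of this signal was not tested.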
